A study of Mus musculus with 211 samples.

Results

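The 10 genes described here belong to the p53 pathway and the control of G1 in mouse cells: *Trp53*, its regulators *Mdm2* and *Mdm4*, the cyclin-dependent kinase (CDK) inhibitors *Cdkn1a*, *Cdkn1b*, *Cdkn2c* and *Cdkn2d*, and the D cyclins *Ccnd1*, *Ccnd2* and *Ccnd3*. They were chosen by name and located by Ensembl identifier, and all 10 were found among the 48709 genes of the read-count table. The table holds 211 single cells sorted for GFP from cochleae of CD1 mice carrying the Lfng-EGFP transgene, killed at postnatal day 60 (P60) or 120 (P120). The groups differ in age by their labels, and also in sequencing run: 6 of the 8 P60 captures were sequenced in run S047, which held no P120 cell. The cells came from 12 Fluidigm C1 microfluidic captures, 8 at P60 and 4 at P120, each made from the pooled cochleae of several mice. The capture was therefore used as the replicate. All animals carried the transgene, which reports activity of *Lfng* regulatory sequence, and cells were selected by its GFP rather than by a marker of one cell type.

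In GENCODE vM21 (GRCm38), *Trp53* (ENSMUSG00000059552.13) at chr11:69580359-69591873 on the plus strand, *Mdm2* (ENSMUSG00000020184.14) at chr10:117688875-117710758 on the minus strand and *Mdm4* (ENSMUSG00000054387.13) at chr1:132959484-133030561 on the minus strand are protein-coding genes with reads counted over their exons. The inhibitor genes are *Cdkn1a* (ENSMUSG00000023067.13) at chr17:29090976-29100727 on the plus strand, *Cdkn1b* (ENSMUSG00000003031.14) at chr6:134920401-134925513 on the plus strand, *Cdkn2c* (ENSMUSG00000028551.14) at chr4:109660876-109667189 on the minus strand and *Cdkn2d* (ENSMUSG00000096472.1) at chr9:21288410-21291407 on the minus strand. The D cyclin genes are *Ccnd1* (ENSMUSG00000070348.5) at chr7:144929931-144939925 on the minus strand, *Ccnd2* (ENSMUSG00000000184.12) at chr6:127125162-127152193 on the minus strand and *Ccnd3* (ENSMUSG00000034165.16) at chr17:47505051-47599691 on the plus strand.

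The p53 protein is a transcription factor that accumulates after DNA damage and other stress. MDM2 is the ubiquitin ligase that marks p53 for destruction, and MDM4 is its relative that blocks p53 activity. One of the best known p53 targets is *Cdkn1a*, which encodes p21, an inhibitor of CDK complexes. *Cdkn1b* encodes p27, which holds cells in quiescence and is best known in the cochlea as the inhibitor that keeps supporting cells out of the cell cycle. *Cdkn2c* and *Cdkn2d* encode p18 and p19, INK4 proteins that bind CDK4 and CDK6. The D cyclins are the activating partners of the same kinases and carry growth signals into phosphorylation of the RB protein.

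The report compares cells in which the proliferation genes *Mki67* or *Top2a* had 10 or more reads, called cycling cells, with cells that had 0 reads of both, called the zero class. There were 62 cycling cells (26 at P60 and 36 at P120), 85 cells of the zero class (47 and 38) and 64 cells between them (29 and 35). Cycling cells were more deeply sequenced, with a median of 1802922.5 reads and 4240.5 genes, against 262658 reads and 1417 genes in the zero class. Shares of cells are therefore also given after each cell was thinned to 50000 reads, which 61 cycling cells and 55 cells of the zero class reached. Levels are CPM, the reads of a gene scaled to a common total of reads, of the summed cells. The median image score for GFP, scaled by the authors, was 216.5 in cycling cells and 387 in the zero class. Of the cycling cells 34 came from the sequencing run S059iso1, against 11 of the zero class, and the part of the run in the differences below was not tested beyond the fits that block on it.

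The label of the cells did not match the transcripts of most of them. The 15 supporting cell markers together held 0.0139% of the reads of cycling cells and 0.136% of those of the zero class. In the 7 captures that held at least 2 cells of each class, these shares were 0.0141% and 0.0117%. At least 3 of these markers had 10 or more reads in 8 of 211 cells, and at least 3 mature neutrophil markers in 183. Over all cycling and all zero-class cells, mature neutrophil markers held 7.72% and 13% of reads, and granulocyte precursor markers 9.03% and 3.23%. At least 10 reads of *Mpo*, *Elane*, *Prtn3* or *Ctsg*, the enzymes of the primary granules, were present in 45 of 62 cycling cells and in 8 of 85 cells of the zero class. Such cells are called cells with precursor reads. The values below describe the sorted cells as sequenced, and no cell type name is given to them.

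The 250 bases before the annotated start of 8 of the 10 genes were read from RefSeq (GRCm38.p6). The starts of *Trp53*, *Mdm2* and the upstream start of *Cdkn1a* are shown because *Trp53* reads were nearly confined to one class in the captures compared, and the other genes encode its main inhibitor and its best known target. Capitals mark a p53 site, searched as the p53 consensus of 20 bases without a spacer, with at most 1 mismatch and on both strands. Each sequence is written 5′ to 3′ on the strand of its gene.
*Trp53*, chr11:69580109-69580358, plus strand: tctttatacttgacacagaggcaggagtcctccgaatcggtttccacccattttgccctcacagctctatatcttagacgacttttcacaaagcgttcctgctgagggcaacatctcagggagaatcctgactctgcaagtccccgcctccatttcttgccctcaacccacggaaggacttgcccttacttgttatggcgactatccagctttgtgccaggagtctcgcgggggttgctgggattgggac
*Mdm2*, chr10:117710759-117711008, minus strand: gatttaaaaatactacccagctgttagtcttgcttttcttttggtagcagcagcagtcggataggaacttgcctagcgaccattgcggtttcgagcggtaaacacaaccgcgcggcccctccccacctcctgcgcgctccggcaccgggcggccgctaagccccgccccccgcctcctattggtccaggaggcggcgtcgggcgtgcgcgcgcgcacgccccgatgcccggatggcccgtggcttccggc
*Cdkn1a*, chr17:29090729-29090978, plus strand: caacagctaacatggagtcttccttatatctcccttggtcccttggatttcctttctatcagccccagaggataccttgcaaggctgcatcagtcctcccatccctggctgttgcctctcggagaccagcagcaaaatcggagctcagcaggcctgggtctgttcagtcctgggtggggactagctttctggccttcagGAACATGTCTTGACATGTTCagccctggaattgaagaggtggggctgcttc
The upstream *Cdkn1a* window held 1 such site, which began 51 bases and ended 32 bases before the start. The window at the downstream *Cdkn1a* start (chr17:29093519-29093768), not shown, held none. Of all 32851 windows of the same length, 25 held one, or 0.0761%. None of the windows of the 8 genes held an E2F-type site (TTTCCCGC, TTTCGCGC, TTTGCCGC or TTTGGCGC on either strand), found in 1.86% of all windows, or a CHR-type element (TTTGAA or TTCGAA), found in 17.1%. These matches describe letters in the window and were not tested for binding.

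Across all 211 cells, 184 had a read of at least 1 of the 10 genes, and the median cell had reads of 3. Reads were also scaled per kilobase of annotated exon, with the exons of all transcripts of a gene merged. This length ran from 1574 bases for *Cdkn2d* to 14798 for *Mdm4* and can exceed that of the transcript present. The scaled value was highest for *Cdkn2d* at 77.1 CPM per kb. *Mdm2* followed at 38.6, *Trp53* at 32.2 and *Cdkn1b* at 28 CPM per kb. *Ccnd3*, *Cdkn1a* and *Mdm4* lay between 15 and 12 CPM per kb, *Ccnd2* was at 3.32, and *Ccnd1* and *Cdkn2c* were below 1 CPM per kb. The order is a description, because it depends on these merged lengths and because few cells carried much of each sum. A single cell held 26% of all *Trp53* reads, 32.6% of *Mdm2* reads, 36.9% of *Cdkn1a* reads and 64.8% of *Ccnd1* reads, against 8.61% for *Cdkn1b*. The most widely detected genes were *Mdm4* and *Cdkn1b*, with a read in 50.7% and 50.2% of cells, and the rarest were *Cdkn2c* in 18 cells and *Ccnd1* in 9. Shares varied between captures, from 0 to 40.7% for *Trp53*, from 0 to 80% for *Cdkn1b* and from 0 to 78.4% for *Ccnd3*. The exons of *Ccnd1* overlap the opposite-strand gene *LTO1* over 23.4% of their bases, and those of *Cdkn1a*, *Ccnd2* and *Ccnd3* overlap other genes over at most 7.68%. The library kit does not mark strand, so reads in those stretches cannot be assigned to one gene.

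The share of cells with a read was higher in cycling cells than in the zero class for all 10 genes, both as sequenced and after thinning. The same was true of 97% of the 4509 genes tested in this comparison as sequenced and of 88.9% after thinning, so the direction is that of most genes. After thinning, the median share over the 10 genes was 34.4% in cycling cells and 15.5% in the zero class. For the 4509 genes it was 29.5% and 10.9%. *Ccnd3* and *Trp53* had the widest gaps, 29 and 27.3 percentage points, and *Cdkn1b* the narrowest among the widely detected genes, 3.34 points. No test was applied to shares over cells.

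**Figure D1:**
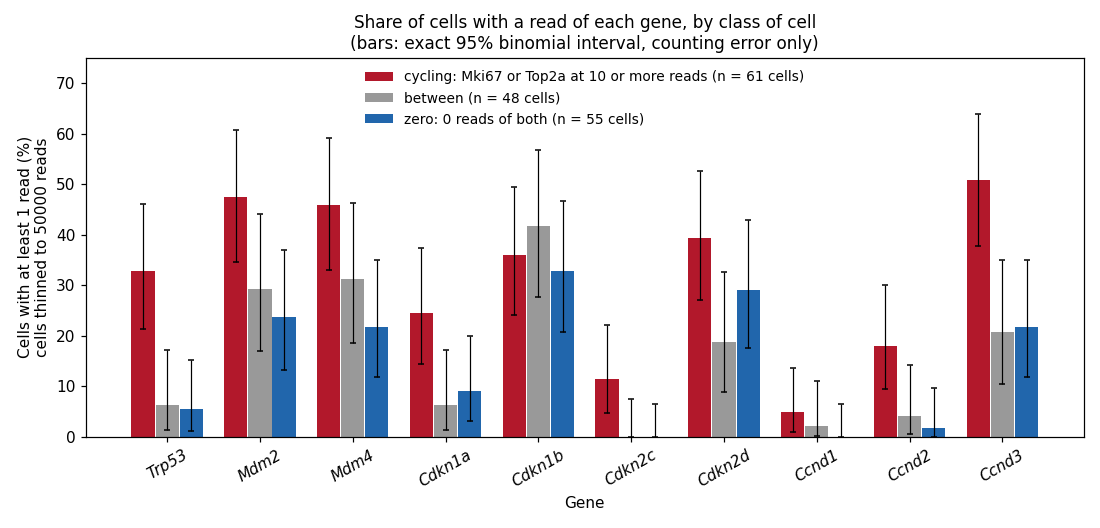
Share of cells (%) with at least 1 read of each of the 10 genes after every cell was thinned to 50000 reads, for 61 cycling cells (red), 48 cells between (grey) and 55 cells of the zero class (blue). Error bars are exact 95% binomial intervals for counting error only. *Trp53* stood at 32.8% against 5.45% in the zero class, whereas *Cdkn1b* stood at 36.1% against 32.7%.

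*Trp53* was detected in 31 of 62 cycling cells (50%, exact Clopper-Pearson 95% interval 37 to 63%) and in 7 of 85 cells of the zero class (8.24%, 3.38 to 16.2%). Of the 3911 *Trp53* reads in the zero class, 99.7% came from 1 cell of capture 21c at P60, and without that cell the zero class held 0.201 CPM. Cycling cells held 232 CPM, or 164 CPM without the cell highest in *Trp53*. After thinning, 20 of 61 cycling cells and 3 of 55 cells of the zero class had a read.

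The classes were compared within the 7 captures that held at least 2 cells of each, 60 cycling cells and 59 of the zero class in all. In the cycling cells of these captures *Trp53* ranged from 0 to 566 CPM with a median of 120. In the zero class it ranged from 0 to 1 CPM with a median of 0. The cycling sum was higher in 6 of 7 captures and both sums were 0 in capture 36, which contributed only 2 cycling cells. *Trp53* did not pass the filter on low counts with all 7 captures. Without capture 36 it was tested and called, with a log2 difference of 9.01 ± 2.54 (SE) and an adjusted p of 0.0063 (edgeR quasi-likelihood test, capture as block, Benjamini-Hochberg over all genes). Without capture 9c it was also tested, with a log2 difference of 9.10 ± 2.97, and was not called (adjusted p 0.172, edgeR). In the fit without capture 36, 22.1% of all genes were called higher in cycling cells and 1.53% lower. *Trp53* passed the filter there only through the cycling sums, so a difference was built into its entry. Without any filter on all 7 captures the difference was 9.09 ± 2.66 with an adjusted p of 0.0854.

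**Figure D2:**
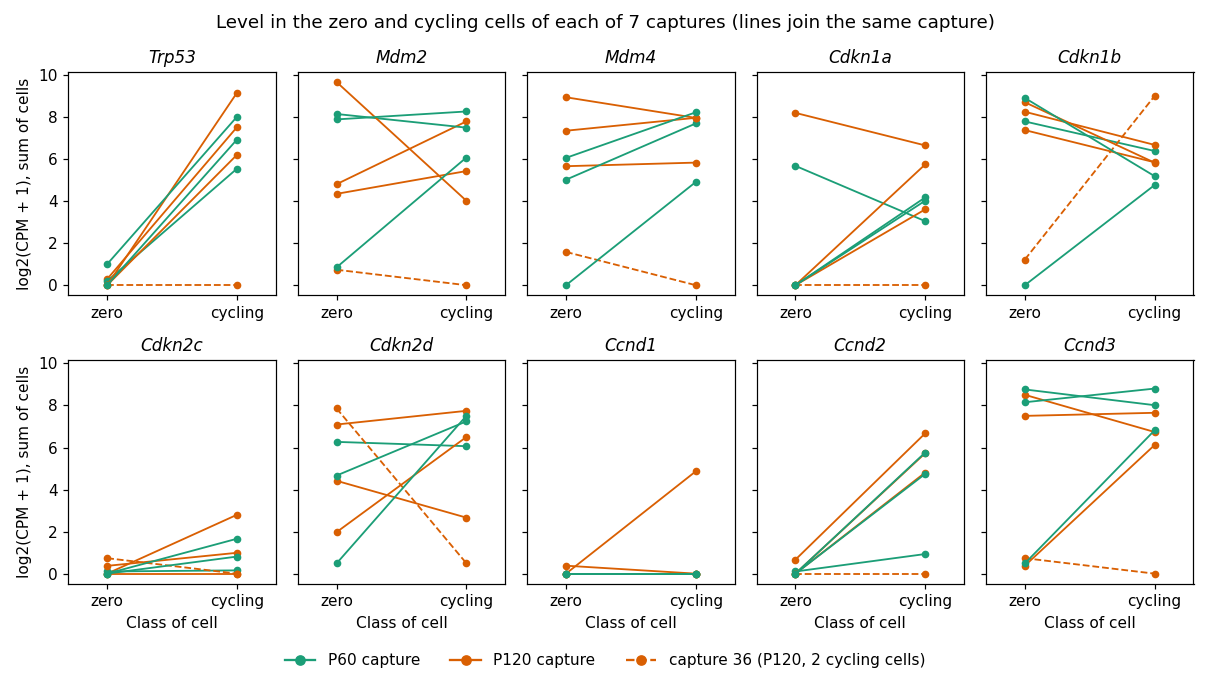
Level of each gene, as log2(CPM + 1) of the summed cells, in the zero class and the cycling cells of the same capture. Lines join the 2 sums of each of 7 captures, 3 at P60 (green) and 4 at P120 (orange), and the dashed line is capture 36 with 2 cycling cells. *Trp53* and *Ccnd2* lines slope up in 6 of 7 captures, *Cdkn1b* lines slope down in 5, and the *Mdm2* and *Ccnd3* lines cross.

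*Mdm2* and *Mdm4* did not follow *Trp53*. *Mdm2* reads were found in 43 of 62 cycling cells and 27 of 85 cells of the zero class. Its level was 119 CPM in the former and 177 CPM in the latter. A single zero-class cell held 95.8% of the 5639 *Mdm2* reads of capture 38. A single cycling cell held 71.8% of the 6473 reads of capture 28. The order of the levels therefore rests on few cells. Over the 7 captures the cycling sums of *Mdm2* ranged from 0 to 306 CPM (median 66.2) and the zero sums from 0.664 to 810 CPM (median 26.9). The ranges overlapped almost completely, and cycling was higher in 4 captures and lower in 3. The fitted log2 difference of *Mdm2* was -0.31 ± 2.03 with an adjusted p of 0.941 (edgeR).

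*Mdm4* was the most widely detected gene in cycling cells, in 49 of 62, against 26 of 85 of the zero class. Its cycling sums ranged from 0 to 298 CPM (median 206) and its zero sums from 0 to 490 CPM (median 49.6). These ranges overlapped as well, with cycling higher in 5 captures and lower in 2. The log2 difference of *Mdm4* was 0.22 ± 2.1 with an adjusted p of 0.958 (edgeR). Neither gene passed the test, and with standard errors of about this size only very large differences could have done so.

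*Cdkn1a*, which encodes p21, had reads in 24 of 62 cycling cells and 6 of 85 cells of the zero class. The few cells of the zero class that had it carried many reads, so that the level ran the other way, 40.8 CPM from 4164 reads in cycling cells and 107.98 CPM from 6129 reads in the zero class. One cell of capture 28 held 64.8% of the zero-class reads, and without it the zero class stood at 40.1 CPM. In the 7 captures the cycling sums ranged from 0 to 99.4 CPM (median 15.2). The zero sums were 0 in 5 captures and 50.1 and 292 CPM in captures 31 and 28. The fitted log2 difference was 6.01 ± 3.63 with an adjusted p of 0.276 by edgeR and 5.05 ± 1.64 with an adjusted p of 0.00586 by DESeq2. The fit without the capture block gave -1.53, the opposite sign. The fitted value follows the 5 captures with 0 reads in the zero class and is not a bound on the fold.

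*Cdkn1b*, which encodes p27, was detected in 40 of 62 cycling cells and 33 of 85 cells of the zero class, and after thinning in 22 of 61 and 18 of 55. Its level was 67.6 CPM in cycling cells, 151 CPM in cells between and 210 CPM in the zero class. In the 7 captures the cycling sums ranged from 26.1 to 511 CPM (median 56.6) and the zero sums from 0 to 479 CPM (median 220). *Cdkn1b* was lower in the cycling cells of 5 captures and higher in captures 36 and 9c, where the zero class held 1.33 and 0 CPM. The log2 difference was -1.76 ± 2.14 with an adjusted p of 0.633 (edgeR), and -2.76 ± 1.92 with an adjusted p of 0.286 without capture 36. The median gene of the fit stood at 2.47 on the same log2 scale, and the value of *Cdkn1b* relative to it was -4.23, which was not tested. That median changed with the fit and was 0.05 without the capture block. Over 21 alternatives the *Cdkn1b* difference ran from -2.90 to 1.24, with 17 negative, 4 positive and 0 called.

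The INK4 genes split. *Cdkn2d* was widespread, in 46 of 62 cycling cells and 29 of 85 cells of the zero class, with levels of 121 and 156 CPM. A single zero-class cell held 99.9% of the 5055 *Cdkn2d* reads of capture 20c, which was not among the 7 captures. The order of the levels rested on that cell. In the 7 captures the cycling sums of *Cdkn2d* ranged from 0.412 to 213 CPM (median 89.3). The zero sums ranged from 0.401 to 231 CPM (median 24.4). The log2 difference of *Cdkn2d* was 0.33 ± 2.48 with an adjusted p of 0.949 (edgeR), and cycling was higher in 4 captures and lower in 3.

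*Cdkn2c* was scarce, with 203 reads in all. Of these, 198 were in 13 cycling cells, 2 in 2 cells between and 3 in 3 cells of the zero class. After thinning, 7 of 61 cycling cells and 0 of 55 of the zero class had a read, and 0 of 55 allows a share of up to 6.49% (exact interval). The gene failed the filter, and its unfiltered log2 difference of 1.99 ± 2.51 had an adjusted p of 0.842 (edgeR). The remaining inhibitors of these families were nearly absent. *Cdkn1c* had 2 reads in 2 cells, and *Cdkn2a* and *Cdkn2b* had 0 reads in 211 cells.

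Among the D cyclins, *Ccnd3* was the main transcript, in 48 of 62 cycling cells and 28 of 85 cells of the zero class. Its levels were 160 and 176 CPM. In the 7 captures the cycling sums of *Ccnd3* ranged from 0 to 446 CPM (median 112) and the zero sums from 0.299 to 433 CPM (median 181). The zero sums divided into captures with almost no *Ccnd3*, below 1 CPM in captures 36, 38 and 40, and captures above 180 CPM. The log2 difference was -0.06 ± 1.91 with an adjusted p of 0.988 (edgeR).

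*Ccnd2* was close to absent from the zero class. It had 4776 reads in 19 of 62 cycling cells, 2063 reads in 4 of 64 cells between and 32 reads in 4 of 85 cells of the zero class. Its cycling sums in the 7 captures ranged from 0 to 101.002 CPM (median 27), and its zero sums from 0 to 0.585 CPM with 5 captures at 0. A single cycling cell held 98.5%, 99.9% and 99.9% of the *Ccnd2* reads of captures 32, 38 and 40, and 41.3% of those of capture 28. The sums of captures 32, 38 and 40 are thus nearly those of a single cell each. Like *Trp53*, *Ccnd2* failed the filter with all 7 captures. Without capture 36 it was called, with a log2 difference of 8.01 ± 2.37 and an adjusted p of 0.00898 (edgeR), again in a fit that it entered through the cycling sums alone. Unfiltered on all 7 captures its adjusted p was 0.103.

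*Ccnd1* had 711 reads in 9 cells, 676 of them in 5 cycling cells of capture 28 at P120. Its unfiltered log2 difference was 0.32 ± 2.25 with an adjusted p of 0.936 (edgeR). After thinning, at least 1 D cyclin was detected in 35 of 61 cycling cells and 13 of 55 cells of the zero class. At least 2 of them were detected in 10 and 0 cells.

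Over the genes that could be tested, edgeR on the 7 captures called 0 of 6 members at an adjusted p under 0.05, where 3.35% of the 4509 genes were called, 130 higher (2.88%) and 21 lower (0.466%) in cycling cells. None of the 6 members reached an unadjusted p under 0.05. DESeq2 called 1 of the same 6, *Cdkn1a*, and called 45.6% of all genes higher and 5.12% lower in cycling cells. Among cells of at least 50000 reads edgeR called 0 of 6 members, 0 at an unadjusted p under 0.05, against 7.95% of all genes higher in cycling cells. The median log2 difference of the 6 members was 0.08, and that of all 4509 genes was 2.47. *Mdm2*, *Mdm4*, *Cdkn1b*, *Cdkn2d* and *Ccnd3* lay below the median of all genes and *Cdkn1a* above it, while *Trp53* and *Ccnd2*, nearly free of zero-class reads, were outside the fit. With library totals in place of TMM factors the median of all genes was 3.28, and without the capture block it was 0.05.

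The cycling cells were then divided by precursor reads. The 45 cells with them had a median of 1808718 reads and 4785 genes, and the 17 without had 995092 reads and 2494 genes. Over the 4509 tested genes the median share of cells with a read was 62.2% and 35.3%, and 34.1% and 17.6% after thinning. *Trp53* was present in 30 of the 45 cycling cells with precursor reads (66.7%, exact interval 51 to 80%) and in 1 of the 17 without (5.88%, 0.149 to 28.7%), and after thinning in 43.2% and 5.88%. *Ccnd2* reads divided as 4771 in the former and 5 in the latter. *Ccnd3* was found in 42 of 45 cycling cells with precursor reads and 6 of 17 without, and after thinning in 61.4% and 23.5%. *Cdkn1b* was found in 30 of 45 and 10 of 17, but after thinning in 31.8% and 47.1%, the opposite order. Its level was 39 CPM with and 160 CPM without precursor reads. Of the 3851 *Cdkn1b* reads in the cells without, 1242 came from 1 cell of capture 36. The 8 cells of the zero class with precursor reads were shallow, with a median of 41809.5 reads. *Ccnd3* was present in 7 of these 8, *Trp53* in 3 and *Ccnd2* in 0. Among cells with precursor reads alone, in the 5 captures with both classes, edgeR called 0 of 7 members, 2 at an unadjusted p under 0.05, while 8.81% of all genes were called higher in cycling cells. The part of these transcripts in the class differences was not otherwise tested.

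A finer division, made after these values were seen, separated cycling cells with 10 or more reads of at least 3 basophil and mast cell genes (16 cells from 4 captures) from other cycling cells with precursor reads (29 cells from 6 captures). The kinds had medians of 1819447 and 1808718 reads, and the median share over the 4509 genes was 62.5% and 62.1%, or 33.3% and 34.5% after thinning. *Trp53* was in 14 of 16 and 16 of 29 of them, at 492 and 197 CPM, and in 66.7% and 31% after thinning. *Ccnd2* was in 9 of 16 and 7 of 29 (40% and 17.2% after thinning), and *Cdkn2c* in 7 of 16 and 4 of 29 (20% and 6.9% after thinning). *Cdkn2d* ran the other way, in 11 of 16 cells at 60.4 CPM and in 24 of 29 cells at 178 CPM, and in 26.7% and 55.2% after thinning. *Ccnd1* was in 0 of 16 and 6 of 29. *Cdkn1a* was in 10 of 16 cells at 86.6 CPM and in 9 of 29 cells at 4.77 CPM, and in 53.3% and 13.8% after thinning. *Ccnd3* was in 15 of 16 and 27 of 29, and in 60% and 62.1% after thinning. *Mdm4* was in 14 of 16 and 26 of 29, but in 73.3% and 44.8% after thinning. Only captures 28, 38 and 9c held both kinds, so capture and kind cannot be told apart for the rest.

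**Figure D3:**
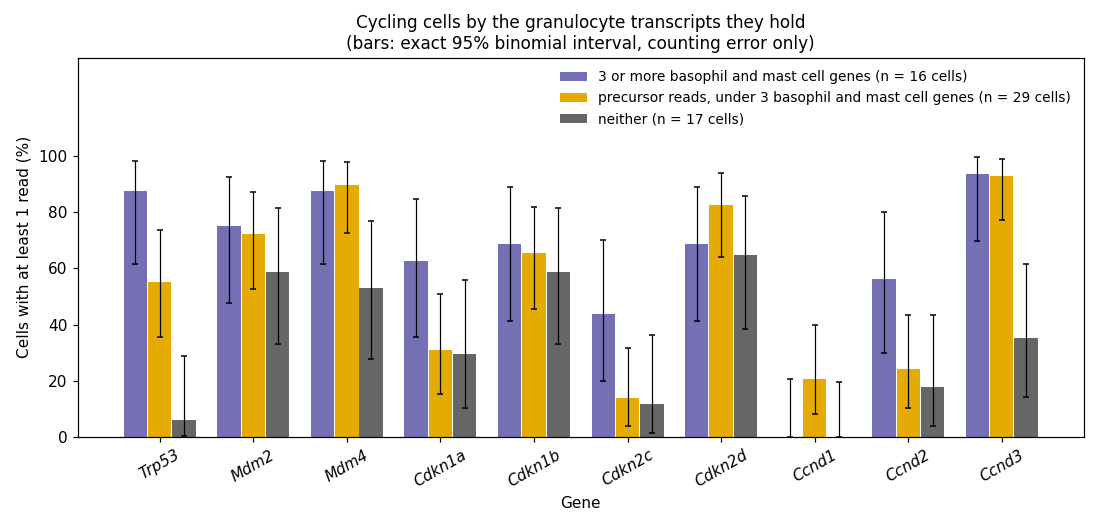
Share of cycling cells (%) with at least 1 read of each gene, as sequenced, for 16 cells with at least 3 basophil and mast cell genes (violet), 29 other cells with precursor reads (yellow) and 17 cells with neither (grey). Error bars are exact 95% binomial intervals for counting error only. *Trp53* stands at 87.5%, 55.2% and 5.88%, and *Cdkn2d* stands at 68.8%, 82.8% and 64.7%.

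No gene of the 10 was called different between P120 and P60. The edgeR test on the sums of each capture called 0 of the 8 members tested, 0 had an unadjusted p under 0.05, and DESeq2 called 0 of 8. Over all 8346 genes 0.12% were called. Age and run overlap: within the runs that hold both ages, 2 captures at P60 and 4 at P120, the log2 difference of *Trp53* was 0.82, that of *Cdkn1a* 1.23, that of *Ccnd3* -0.19 and that of *Cdkn1b* 0.92, the first 3 with the opposite sign to the comparison of all captures. None was called there (edgeR), and for the 6 captures of run S047 age and run cannot be told apart. The median gene lay 0.26 higher at P120 on the log2 scale.

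*Trp53* was present in 21 cells at P60 (20.6%) and 28 at P120 (25.7%). Its levels in the 4 P120 captures were 0.11, 40.4, 118 and 367 CPM, and in the 8 P60 captures they ranged from 0 to 835 CPM with a median of 6.02. The ages overlapped fully, and the log2 difference was -0.28 ± 1.72 with an adjusted p of 1 (edgeR). *Mdm2* had levels of 0.986, 43, 146 and 216 CPM at P120 and 0 to 407 CPM with a median of 43.6 at P60. *Mdm4* had 0.438, 52.4, 181 and 322 CPM at P120 and 0 to 1067 CPM with a median of 21.3 at P60. In all these cases capture 36 was the lowest at P120 and capture 10c, whose median cell had 451 reads, was at 0 at P60.

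*Cdkn1b* showed the largest age difference in the tested set, and it did not pass. Its P120 captures held 85, 122, 201 and 278 CPM and its P60 captures 0 to 168 CPM with a median of 107.8. Means over captures were 172 ± 86 (SD, n = 4) at P120 and 87.7 ± 69.9 (SD, n = 8) at P60. The log2 difference was 1.41 ± 1.57 with an adjusted p of 1 (edgeR), and it was positive under all 20 alternatives. *Cdkn2d* had P120 captures of 8.48, 50.2, 98.1 and 157 CPM against 1.91 to 741 CPM with a median of 88.8 at P60. *Cdkn1a* had 0, 6.23, 44.5 and 144 CPM at P120 against 0 to 197 CPM with a median of 12 at P60.

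*Ccnd3* had P120 captures of 38.2, 119, 146 and 172 CPM against 0 to 242 CPM with a median of 49.6 at P60. *Ccnd2* had 0.11, 14.9, 29 and 64.4 CPM at P120 against 0 to 146 CPM with a median of 3.09 at P60. Both genes overlapped between the ages, with log2 differences of 0.73 ± 1.69 and 0.39 ± 2.16. *Cdkn2c* and *Ccnd1* did not pass the filter. *Cdkn2c* was read in 5 cells at P60 and 13 at P120, and *Ccnd1* in 2 and 7. Capture 28 at P120 held 8 of these *Cdkn2c* cells and 6 of these *Ccnd1* cells, among its 37 cells.

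**Figure D4:**
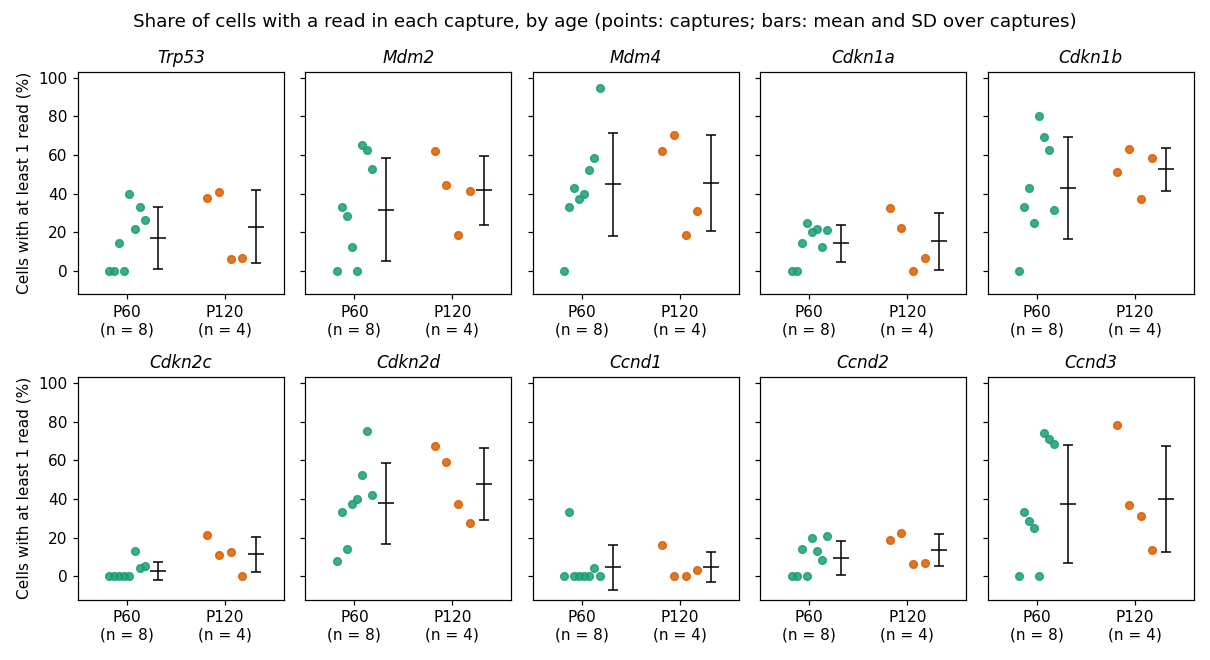
Share of cells (%) with at least 1 read of each gene in each capture, for 8 P60 captures (green) and 4 P120 captures (orange), with the mean and SD over captures in black. The groups overlap for every gene. *Trp53* averaged 17 ± 15.9% at P60 and 22.9 ± 18.9% at P120.

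The difference between cycling cells and the zero class was also compared between the ages. The interaction test over 3 P60 and 4 P120 captures called 0 of 8 members and 0 of 9118 genes (edgeR), with 141 genes at an unadjusted p under 0.05. DESeq2 called 57 genes with a larger and 121 with a smaller class difference at P120, none of them a member. By DESeq2, 1 member had an unadjusted p under 0.05, and by edgeR 0 had. In the shares, *Trp53* was present in 12 of 26 cycling and 5 of 47 zero-class cells at P60, and in 19 of 36 and 2 of 38 at P120. *Cdkn1a* was present in 8 of 26 and 5 of 47 at P60, and in 16 of 36 and 1 of 38 at P120. The interaction term of *Mdm4* was -4.76 ± 4.01 and that of *Trp53* was 3 ± 4.84 on the log2 scale, both with an adjusted p of 1 (edgeR).

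Correlations between the 10 genes over cells were low at equal depth. Over the 164 thinned cells the 45 pairs had a median Spearman correlation of 0.07, and 31 pairs were above 0. All cells share captures and sequencing runs, and the values are descriptions. The highest was *Trp53* with *Ccnd2* at 0.35, where 30.8% of the 26 cells with *Trp53* also had *Ccnd2*, against 4.35% of cells without it. Among the 61 cycling cells this pair stood at 0.41, with 40% against 7.32%. *Cdkn2d* with *Ccnd2* was the lowest pair among cycling cells at -0.31, as 1 of 24 cells with *Cdkn2d* had *Ccnd2*, against 27% of cells without it. *Cdkn2d* with *Trp53* was at -0.26. *Trp53* and its inhibitor *Mdm2* stood at -0.01 and *Trp53* and its target *Cdkn1a* at 0.11 among cycling cells. In the 55 cells of the zero class, where 28 pairs could be computed, the highest was 0.17. The ages differed in these values. Over 80 cells at P60 the median was -0.01, 21 pairs were above 0, and *Cdkn2c* with *Cdkn2d* was highest at 0.28. Over 84 cells at P120 the median was 0.11, 32 pairs were above 0, and *Trp53* with *Ccnd2* was highest at 0.44.

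**Figure D5:**
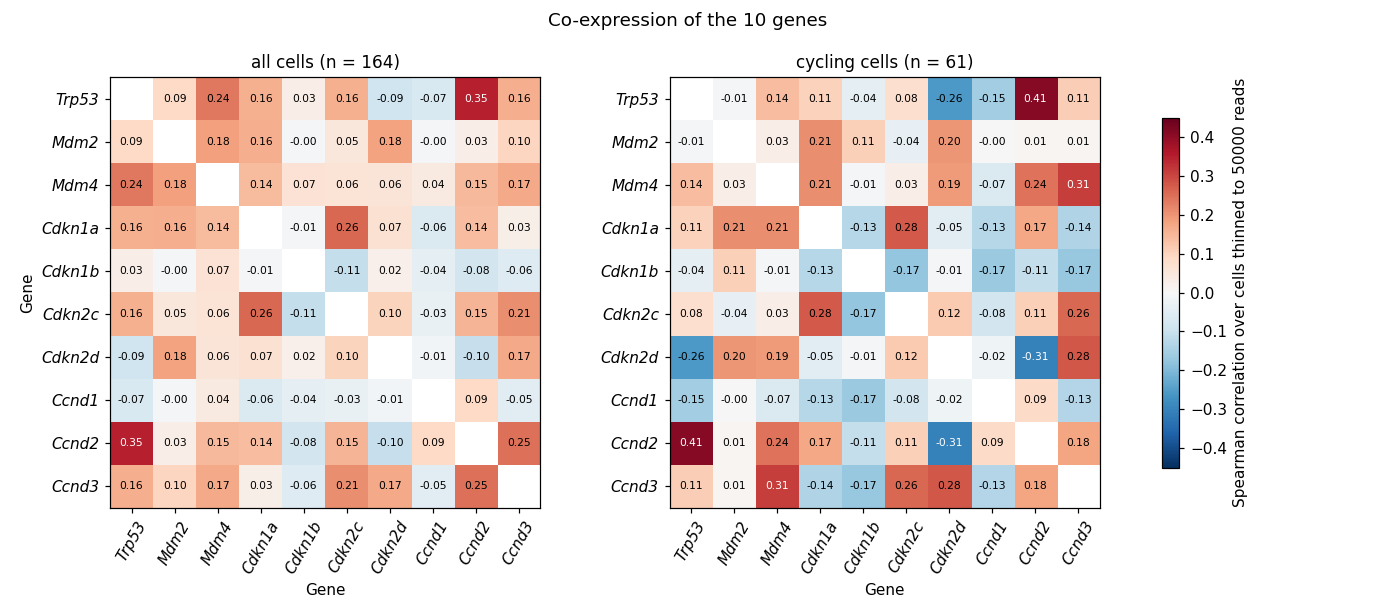
Spearman correlation over cells thinned to 50000 reads for each pair of the 10 genes, in all 164 cells (left) and in the 61 cycling cells (right), with red above 0 and blue below 0. The *Trp53* and *Ccnd2* pair is the highest in both, at 0.35 and 0.41, and *Cdkn2d* with *Ccnd2* the lowest on the right, at -0.31.

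The genes most like each member were sought among those read in at least 25% of the 164 thinned cells. For *Trp53* they were *Ctsg*, a primary granule protease (Spearman 0.58), *Calr*, an endoplasmic reticulum chaperone (0.57), and *Rpl36al*, a ribosomal protein gene (0.57). For *Ccnd2* they were *Rpl23a* (0.45), *Rbm8a* (0.42) and *Psmb2* (0.41), genes of the ribosome, the exon junction complex and the proteasome. For *Cdkn2d* they were *Cpne3* (0.38), *Lcn2*, a protein of specific granules (0.38), and *Cd177*, a neutrophil surface protein (0.37). For *Cdkn1b* they were *Bin2* (0.36), *Evi2a* (0.29) and *Myo1f* (0.27), and for *Ccnd3* *Ywhab* (0.39), *Rpl15* (0.38) and *Tuba4a* (0.37). *Mdm2* was most like *Psma1* (0.41), *Ccni* (0.4) and *Plac8* (0.37), and *Mdm4* most like the mitochondrial genes *Cox6c* (0.41), *Chchd2* (0.41) and *Minos1* (0.4). *Rrm2*, a ribonucleotide reductase subunit of S phase, was among the 3 for both *Cdkn1a* (0.34) and *Cdkn2c* (0.35), beside *Banf1* (0.37) and *Yy1* (0.32) for the former and *Rdx* (0.36) and *Ube3a* (0.35) for the latter. The ranking of *Cdkn2c* rests on 7 thinned cells with a read, 5 of them cycling cells of capture 28. *Ccnd1*, read in 4 thinned cells, was not ranked.

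Other genes of the pathway were taken from fixed lists, which overlap with the class rule in what they measure. Of 9 tested S phase genes 3 passed higher in cycling cells, *Rrm2*, *Mcm3* and *Tk1*, and of 5 tested G2/M genes all 5 did, *Ube2c*, *Birc5*, *Cdc20*, *Aurkb* and *Nusap1*. *Rrm2* ranged from 1.23 to 948 CPM in cycling sums and from 0 to 0.664 CPM in zero sums (log2 difference 10.64, adjusted p 0.024, edgeR). Among CDKs and cyclins of G1 and S, 1 of 6 tested genes passed. This was *Cdk4*, the kinase partner of the D cyclins, with a cycling median of 62.2 CPM, a zero median of 0 CPM and an adjusted p of 0.0495 (edgeR). Over all genes 2.88% were called higher in cycling cells. The genes named here had zero medians of at most 0.15 CPM. They passed the filter on low counts mainly through the cycling sums, so a difference was built into their entry.

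Among 24 listed p53 targets 7 were tested. *Btg2*, an antiproliferative gene, was the only one that passed, and it was called lower in cycling cells, as were 0.466% of all genes. Its cycling sums ranged from 288 to 3975 CPM (median 1789) and its zero sums from 3258 to 10393 CPM (median 7372), with a log2 difference of -3.07 and an adjusted p of 0.024 (edgeR). In thinned cells *Btg2* was at -2.39 and lost its call (adjusted p 0.0714, edgeR). DESeq2 called 3 of the 7 targets higher in cycling cells, *Pmaip1*, *Ccng1* and *Xpc*, and 3 lower, *Btg2*, *Trp53inp1* and *Gadd45a*, named after their values were seen. Over all genes DESeq2 called 45.6% higher and 5.12% lower. The median log2 difference of the 7 targets was -2.21, below the 2.47 of all genes, and 3 of the 7 lay above 0. The list was written with earlier results of these data known. Of 7 tested p53 regulators, 3 tested RB and E2F genes and 5 tested p27 turnover genes 0 passed, with medians of 2.16, 5.46 and 3.25. By DESeq2, 3, 3 and 4 of these passed higher in cycling cells, where it called 45.6% of all genes higher. In the age comparison 0 genes of these lists passed (edgeR).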

How the data were processed

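Cells were sorted for GFP, captured on the Fluidigm C1 and sequenced as full-length cDNA without molecular identifiers. The binomial intervals treat cells as independent, so they cover counting error only and leave out the spread between captures. The authors aligned reads with STAR v2.5 to GRCm38 and deposited raw read counts per gene (GENCODE vM11), after removing endothelial cells and outlier cells. Doublets were gated by scatter and capture sites were imaged by the authors, and no doublet caller was run here. Symbols came from GENCODE vM21 (48349 of 48709 identifiers matched). Spike-ins (92) were left out. The deposited GFP image score was scaled by the authors in a way not given in the sources used here. The 10 genes and all lists were chosen with earlier results of these data known. For tests, the reads of all cells of a capture, or of each class within it, were added up and analysed with edgeR 4.0.16 (quasi-likelihood F test, TMM, filterByExpr, Benjamini-Hochberg, threshold 0.05), in R 4.3.3, with DESeq2 1.42.0 as an alternative. Captures carry no replicate numbers that pair ages, and the capture was the block of the cycling comparison because cells of both classes shared it. P-values measure the spread between captures. Cell totals ranged from 41 to 5361476 reads and capture totals from 119240 to 44268475. Thinning to 50000 reads used 1 fixed seed, and 164 cells reached it. Scripts were tested on simulated data. Named genes were the 10 members, list genes that passed in a main comparison, and the 3 genes with the highest Spearman correlation with each member.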

Additional observations from a re-analysis of the deposited data

Results flagged for a closer look

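For each gene, the level and the share of cells were examined in the P60 captures, the P120 captures, and the cycling and zero sums of the 7 captures. Of 80 such groups, 24 had 1 capture far from the others by Dixon's criterion at 95%. A chance rate of about 1 in 20 groups holds only for independent, normally distributed values. Here the values were skewed, and the level and share of a gene came from the same captures. Some flags rest on few reads, as for *Ccnd1* in the zero class of capture 38, with 2 reads in 1 cell. The count of flags therefore cannot be compared with that rate. Each flagged value is given with that of its nearest neighbour.

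In the group of P60 captures, *Trp53* stood at 835 CPM in capture 21c (next 118), *Mdm4* stood at 1067 CPM in capture 20c (next 300.0), *Cdkn1a* stood at 197 CPM in capture 20c (next 30.6), *Cdkn2c* stood at 1.44 CPM in capture 9c (next 0.348), *Cdkn2c* stood at 13% in capture 31 (next 5.26), *Cdkn2d* stood at 741 CPM in capture 20c (next 147), *Ccnd1* stood at 3.61 CPM in capture 17c (next 0.497), *Ccnd1* stood at 33.3% in capture 17c (next 4.17), *Ccnd2* stood at 146 CPM in capture 9c (next 24.5).

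In the group of P120 captures, *Ccnd1* stood at 15.3 CPM in capture 28 (next 0.0764).

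In the group of zero cells of the 7 captures, *Trp53* stood at 1.0004 CPM in capture 40 (next 0.221), *Mdm2* stood at 810.4 CPM in capture 38 (next 282), *Mdm4* stood at 489.9 CPM in capture 32 (next 162), *Cdkn1a* stood at 292 CPM in capture 28 (next 50.1), *Cdkn1a* stood at 27.3% in capture 31 (next 9.09), *Ccnd1* stood at 0.299 CPM in capture 38 (next 0), *Ccnd1* stood at 8.33% in capture 38 (next 0), *Ccnd2* stood at 0.585 CPM in capture 32 (next 0.0732).

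In the group of cycling cells of the 7 captures, *Mdm2* stood at 0% in capture 36 (next 55.6), *Mdm4* stood at 0% in capture 36 (next 58.3), *Cdkn1b* stood at 511 CPM in capture 36 (next 101.1), *Cdkn2c* stood at 5.95 CPM in capture 28 (next 2.16), *Ccnd1* stood at 28.1 CPM in capture 28 (next 0), *Ccnd1* stood at 27.8% in capture 28 (next 0). No explanation was tested for these captures, and capture 36 held 2 cycling cells.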

How the results depend on the processing

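The 4 fits on cells with or without precursor reads, with the run in the block, and the left-out captures of the correlations were chosen after seeing the data. A fit of cells with precursor reads in captures with at least 2 of each class could not be made, as 1 capture remained. Against 5 genes higher and 5 lower at P120, counts were 17 higher without a filter, 1 with library totals, 0 and 0 in thinned cells, 1 and 0 without capture 10c, 2 and 0 in the runs that hold both ages, and 0 and 0 with the run as a covariate. Against 130 genes higher and 21 lower in cycling cells, they were 2054 and 231 with DESeq2, 2 and 2 without a filter, 549 higher with library totals, 7 and 5 in thinned cells, and 7 and 6 without the capture as replicate block. They were 4 and 3 with 1 or more proliferation reads against 0, 22 and 42 with 10 or more against fewer, 351 higher in cells of at least 50000 reads, 39 higher with at least 1 cell of each class, and 1255 and 87 with at least 3, which leaves out capture 36. They were 369 and 2 in cells with precursor reads, 3 and 0 in cells without, 1 and 1 with the run added to the capture block, and 2 and 0 with that block in thinned cells. The interaction gave 57 and 121 with DESeq2 against 0 and 0. The median share of the 10 genes was 34.4% in thinned cycling cells, and 8.24% in the zero class at 10 or more reads. The median correlation was 0.14 without thinning.

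Leaving out 1 capture at a time gave 1 to 10 genes higher and 0 to 8 lower at P120, 1 to 1255 higher and 3 to 87 lower in cycling cells, and a median correlation of 0.0602 to 0.0870. Leaving out any capture other than 36 left at most 7 genes higher in cycling cells. *Trp53* and *Ccnd2* were called only without capture 36 (the same captures as at least 3 cells of each class), and *Cdkn1a* only with DESeq2. Log2 differences that changed sign, none of them past the threshold, follow, and their cause was not tested. Left-out captures gave *Trp53* -1.51 to 2.01 for age, *Mdm2* -1.33 to 0.21 for age, *Mdm4* -1.48 to 0.67 for age, *Cdkn1a* -1.54 to 1.52 for age, *Cdkn2d* -1.45 to 0.35 for age, *Ccnd2* -0.28 to 1.88 for age, *Mdm2* -1.01 to 0.41 for cycling, *Mdm4* -0.39 to 0.73 for cycling, *Cdkn2d* -0.51 to 1.18 for cycling, *Ccnd3* -0.79 to 0.62 for cycling. With DESeq2 the values were *Trp53* 1.78 for age, *Mdm2* 0.14, *Ccnd3* 0.42 for cycling, *Cdkn1a* -1.27 for the interaction. Without a filter on low counts the values were *Trp53* 0.0553 for age. In cells thinned to 50000 reads the values were *Trp53* 0.49, *Mdm2* 0.93, *Mdm4* 0.48, *Cdkn1a* 0.29, *Ccnd2* -0.85 for age, *Mdm2* 1.41, *Cdkn2d* -0.23, *Ccnd3* 0.95 for cycling. In the runs that hold both ages the values were *Trp53* 0.82, *Cdkn1a* 1.23, *Ccnd3* -0.19 for age. With the run as a covariate the values were *Trp53* 0.80, *Cdkn1a* 1.203, *Ccnd3* -0.18 for age. In the zero class alone the values were *Mdm2* 2.44, *Mdm4* 0.54, *Cdkn1a* 0.70 for age. With library totals the values were *Cdkn1a* 0.47 for age, *Mdm2* 0.45, *Ccnd3* 0.72 for cycling. With 1 or more proliferation reads against 0 the values were *Mdm2* 0.30, *Cdkn1b* 0.26, *Ccnd3* 3.74 for cycling. In cells of at least 50000 reads the values were *Mdm2* 0.26, *Ccnd3* 0.59 for cycling. With at least 1 cell of each class the values were *Mdm2* 0.82, *Ccnd3* 1.48 for cycling. In cells with precursor reads the values were *Mdm2* 2.88, *Cdkn1b* 1.24, *Ccnd3* 1.35 for cycling. In cells without precursor reads the values were *Mdm2* 0.74, *Mdm4* -3.13, *Cdkn1b* 0.53 for cycling. With the run added to the capture block the values were *Mdm2* 3.11, *Mdm4* -0.997, *Ccnd3* 3.01 for cycling. With that block and thinned cells the values were *Mdm2* 2.90, *Cdkn1b* 0.90, *Cdkn2d* -0.37 for cycling. Without the capture as replicate block the values were *Mdm4* -0.48, *Cdkn1a* -1.53, *Cdkn2d* -0.55 for cycling. With 10 or more reads against fewer the values were *Mdm4* -0.84, *Cdkn2d* -0.73, *Ccnd3* 0.64 for cycling. With at least 3 cells of each class the values were *Ccnd3* 0.16 for cycling. Few captures and wide spreads limit these fits.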
